A study of Arabidopsis thaliana with 4 samples.

Results

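The mitochondrial genome of Arabidopsis was read on the ATH1 array by 23 of 22746 probe sets (Affymetrix controls left out), each of which the platform annotation pairs with a single gene of that genome. They stand for 16 of the 13350 genes that have a probe set of their own in that annotation, because nad1 has 7 probe sets and nad5 has 2, and probe sets of all brightness levels were kept. RNA came from whole aerial parts of 10-day-old seedlings grown on agar medium with sucrose in continuous light, either wild type or mutant for eif3h-1, a T-DNA allele that truncates eIF3h, the h subunit of the cytosolic translation initiation factor eIF3. Each genotype has 2 arrays, 1 from each of 2 experimental repeats, for which RNA was prepared independently. The mutant was represented by this allele alone, and the accession of the plants used for the arrays is not stated, though reporter lines of the same study were made from eif3h-1 plants in Wassilewskija. Values are MAS 5.0 signals in arbitrary units, and a log2 ratio is the eif3h signal over the wild-type signal of the same repeat. Since a whole organ system was extracted, changes in the share of a cell type, in mitochondria per cell and in RNA per mitochondrion cannot be told apart.

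Plant mitochondria keep a small genome that encodes core subunits of respiratory complexes I, III and IV and of the ATP synthase (complex V), several proteins of the cytochrome c maturation pathway, some ribosomal proteins, a maturase and a subunit of a protein translocase. These genes are transcribed by nuclear-encoded phage-type RNA polymerases, and their transcripts are edited from C to U and spliced, in some cases in trans from separately transcribed pieces (nad1, nad2 and nad5). Their proteins are made on mitochondrial ribosomes, without eIF3, and assemble with subunits that are encoded in the nucleus and translated in the cytosol. The array covers this genome unevenly. Of 32 protein-coding symbols on the mitochondrial genome in RefSeq (TAIR10.1), 16 are read by the 23 probe sets. A further 11 are read only by probe sets that the platform also pairs with another gene. The platform names no probe set for the other 5 (atp4, atp6, atp8, ccmC and nad3).

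The 4 arrays had median signals of 201 to 221. The probe set of TIF3H1, the gene that encodes eIF3h, had signals of 245 and 432 in eif3h and of 1363 and 1020.5 in the wild type (log2 fold change -1.86 ± 0.28 SE, limma adjusted p = 0.0071, 2 arrays per genotype). The brightest probe sets, those whose mean signal reached 327, were tested with limma, blocking on the repeat, and those with a Benjamini-Hochberg adjusted p under 0.05 are referred to as called. An exact permutation test of 2 arrays against 2 has a smallest two-sided p of 0.333, and none is reported. Of the 10 marker genes listed, only PSAN, a photosystem I subunit of green tissue, and EXPA7, an expansin of root hairs, had a named probe set. PSAN had signals of 14376.5 and 19530.5 in eif3h and of 19181 and 21952 in the wild type. It was lower in eif3h in both repeats with overlap (log2 ratios -0.42 and -0.17) and was not called (limma adjusted p = 0.276). EXPA7 had 78.1 and 128 in eif3h and 61.8 and 72.2 in the wild type, too dim to be tested. It was higher in both repeats without overlap (0.34 and 0.83), and 34.3% of all untested probe sets did not overlap. The part of these marker levels in the results was not tested.

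Most mitochondrial probe sets were dim. The signal lay below the median of its array on all 4 arrays for 17 of the 23, above it on all 4 for 5 (nad4, cox1, ccb382, ccb452 and orfX) and on either side for 1 (a nad1 probe set). The tested probe sets included 4 members, and the other 19 had mean signals of 8.01 to 271 and were given no p. For all 4 tested members the mean of each genotype alone also exceeded the lowest mean signal tested, so none of them was tested through 1 genotype only. Of the 4, 2 were called higher in eif3h (ccb382 and nad4), where 8.49% of all tested probe sets were called higher. None was called lower, at an adjusted or at an unadjusted limma p under 0.05, where 9.68% of all tested probe sets were called lower. Counts out of 4 are too small to be read as a share.

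Over all 23 probe sets the log2 ratios had no common direction. Their median in repeat 1 was 0.25, and in repeat 2 it was -0.05, beside 0.05 and 0.01 for all 22746 probe sets, while the median of the mean of both repeats was -0.02 (0.03 for all probe sets). In both repeats 6 members were higher in eif3h (34.1% of all probe sets were) and 7 were lower (30.2% of all), and the other 10 changed sign between the repeats. The same direction in both repeats was thus seen for 13 of 23 members, where 64.3% of all probe sets had it. The signals of both eif3h arrays lay above those of both wild-type arrays for 3 members and below them for 4. Over all probe sets, 22.1% did not overlap with eif3h higher and 19.2% with eif3h lower, so these counts are near the background.

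**Figure D1:**
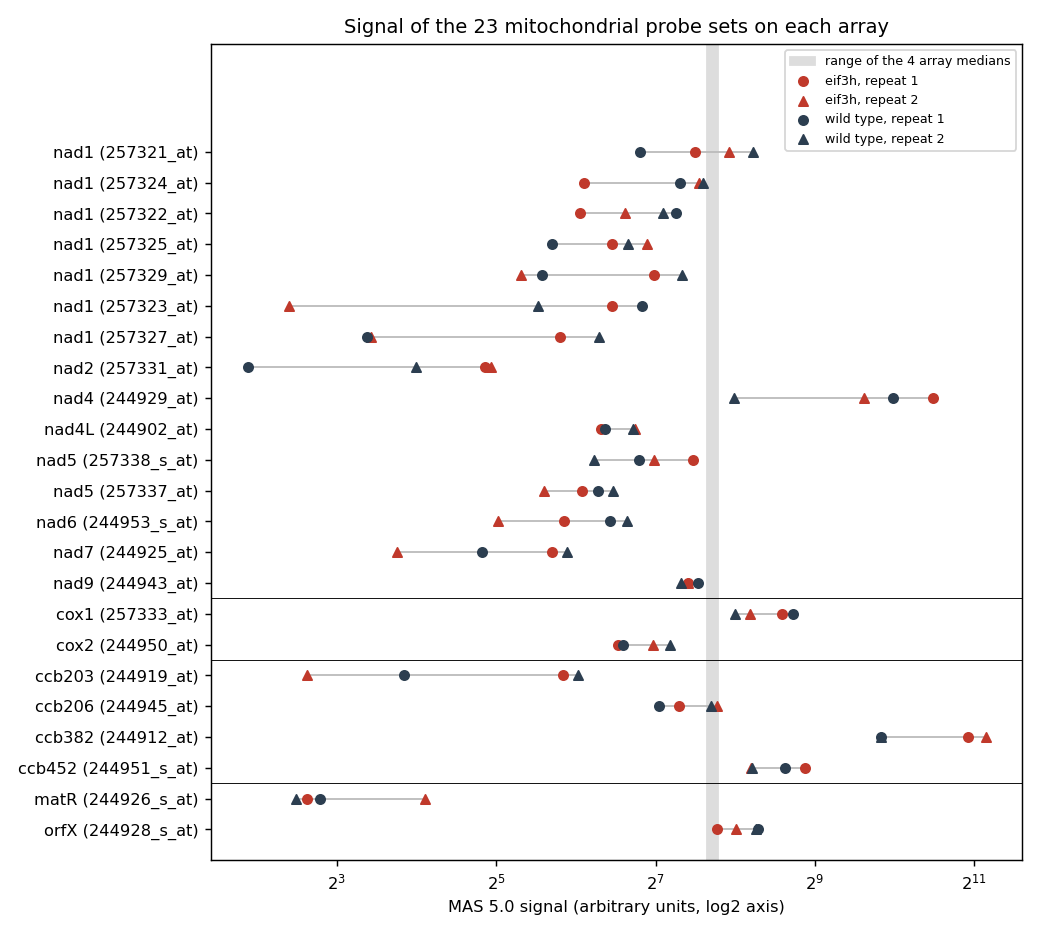
MAS 5.0 signal (arbitrary units, log2 axis) of the 23 mitochondrial probe sets, 1 row per probe set, on the 2 eif3h arrays (red) and the 2 wild-type arrays (dark blue), with circles for repeat 1 and triangles for repeat 2. Grey lines join the lowest and highest signal, horizontal lines separate complex I, complex IV, cytochrome c maturation and the maturase and translocase genes, and the grey band spans the 4 array medians (201 to 221), below which 17 probe sets lie on all 4 arrays.

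Of the 4 tested members, the member with the largest change belongs to cytochrome c maturation, the pathway that attaches haem to apocytochromes c in the intermembrane space. ccb382 encodes CcmFN1, a piece of the haem lyase component CcmFN, which is split between separate genes in Arabidopsis. Its probe set (244912_at) had signals of 1941 and 2259 in eif3h and of 911 and 907 in the wild type. Both mutant arrays were high, and the wild-type arrays of the separate repeats differed by 0.01 on the log2 scale. The log2 ratio was 1.09 in repeat 1 and 1.32 in repeat 2, a mean fold of 2.30 (log2 fold change 1.20 ± 0.18 SE, limma adjusted p = 0.00619, higher in both repeats). The size held with any of the 4 arrays left out (log2 fold change 1.09 to 1.31), but the call did not (adjusted p = 0.0911 to 0.177), nor without the block (adjusted p = 0.067). It was more than 2-fold higher in both repeats, as were 1.34% of the tested probe sets. It was also the only tested member past the fold rule of the study's methods in the direction of eif3h, which 2.0% of the tested probe sets passed.

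None of the other cytochrome c maturation probe sets was called, and only that of ccb452 was tested. ccb452 encodes CcmFC, another component of the haem lyase. Its signals were 470.5 and 295 in eif3h and 396 and 297 in the wild type, and the log2 fold change was 0.12 ± 0.18 SE (limma adjusted p = 0.673). ccb206 encodes CcmB, a membrane subunit of an ABC transporter of the pathway. Its signals of 157 and 219 in eif3h overlapped those of 132 and 207 in the wild type, with log2 ratios of 0.25 and 0.08. ccb203 encodes CcmFN2, the other piece of CcmFN. Its probe set was dim and changed sign: the signal was 57.1 in eif3h and 14.4 in the wild type in repeat 1, but 6.2 and 65.0 in repeat 2 (log2 ratios 1.99 and -3.39). Levels of the CcmFN pieces cannot be set against each other, since they come from different probe sets. The median of the mean ratio over the 4 probe sets was 0.14 (0.67 in repeat 1 and 0.03 in repeat 2).

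Complex I (NADH dehydrogenase), the entry point of electrons from NADH into the respiratory chain, had 15 of the 23 probe sets, with a median of the mean ratio of -0.22 (0.50 in repeat 1 and -0.30 in repeat 2). This median was -0.02 without eif3h replicate 1, 0.27 without eif3h replicate 2, -0.62 without wild-type replicate 1 and 0.07 without wild-type replicate 2, so it has no settled direction. The only one bright enough to be tested was that of nad4, which encodes a proton-pumping subunit of the membrane arm. nad4 had signals of 1429.5 and 788 in eif3h and of 1010.2 and 254 in the wild type. The level fell from repeat 1 to repeat 2 in both genotypes, by 0.86 in eif3h and by 1.99 in the wild type on the log2 scale, so that the groups overlapped while eif3h was higher within each repeat. The log2 ratio was 0.50 in repeat 1 and 1.63 in repeat 2, a mean fold of 2.09 (log2 fold change 1.07 ± 0.27 SE, limma adjusted p = 0.0344). The call was lost without the block (adjusted p = 0.395), and in fits to 3 arrays, which have no block, without eif3h replicate 1 (adjusted p = 0.748), eif3h replicate 2 (adjusted p = 0.359) or wild-type replicate 2 (adjusted p = 0.950). Without wild-type replicate 2 the log2 fold change was 0.07, a fit that sets both repeats of eif3h against repeat 1 of the wild type, while the ratio within repeat 1 was 0.50.

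None of the other 14 complex I probe sets reached the tested brightness. nad2, a further proton-pumping subunit, had the highest mean log2 ratio of all 23 members, at very low signals of 29.1 and 30.7 in eif3h against 3.7 and 15.9 in the wild type (log2 ratios 2.98 and 0.95). The groups did not overlap, but the ratio differed by 2.03 between repeats. With 50 added to every signal its log2 fold change was 0.43, below those of ccb382 (1.16), nad4 (0.97) and a nad5 probe set (0.50). nad6, also of the membrane arm, had signals of 57.6 and 32.5 in eif3h and of 86.5 and 100.1 in the wild type. It was lower in eif3h in both repeats without overlap (log2 ratios -0.59 and -1.62). The 2 probe sets of nad5, which encodes another pumping subunit, went opposite ways. 257338_s_at had signals of 178 and 126.5 in eif3h and of 111 and 75.0 in the wild type, with log2 ratios of 0.68 and 0.75, among the smallest differences between repeats of any member. 257337_at had 67.5 and 48.5 in eif3h and 77.4 and 88.2 in the wild type, with log2 ratios of -0.20 and -0.86. Neither pair of groups overlapped. Which exon or transcript piece of nad5 each of them reads is not given in the tables used here, nor whether either reads another reading frame within its span.

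nad9 and nad7 encode subunits of the matrix arm. nad9 had nearly level signals, 169.6 and 169.9 in eif3h and 185 and 159 in the wild type (log2 ratios -0.13 and 0.09). nad7 changed sign, with signals of 52.2 and 13.5 in eif3h and of 28.2 and 59.3 in the wild type (log2 ratios 0.89 and -2.14). nad4L, a small membrane-arm subunit, differed least between the genotypes, with signals of 79.4 and 107 in eif3h and of 82.2 and 105.5 in the wild type. Its log2 ratios were -0.05 and 0.02.

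The 7 probe sets that the platform names nad1, a core membrane-arm subunit whose exons are transcribed in separate pieces and joined by trans-splicing, did not move together. Their mean log2 ratios ran from -1.75 to 0.50, with a median of -0.31. The lowest of these, which was also the lowest of all 23 members, was 257323_at, with signals of 87.5 and 5.3 in eif3h and of 114 and 46.2 in the wild type (log2 ratios -0.38 and -3.12). The groups overlapped, and the low mean came from the eif3h array of repeat 2. With 50 added to every signal its log2 fold change was -0.53, and nad6 (-0.60) and 257322_at (-0.57) were lower. Only 257322_at separated the genotypes, with 66.3 and 98.0 in eif3h below 153 and 136 in the wild type (log2 ratios -1.20 and -0.47). 257324_at was also lower in both repeats (-1.20 and -0.05) and 257325_at was higher in both (0.76 and 0.24), each with overlap. The brightest, 257321_at, had signals of 181 and 242 in eif3h and of 112 and 298 in the wild type, and changed sign. So did 257329_at (1.40 and -2.02) and 257327_at (2.42 and -2.86), whose repeats differed by 3.42 and 5.29 on the log2 scale. The tables used here do not say which part of nad1 each probe set reads, so the differences among them cannot be placed along the gene. Some of the 7 may read other reading frames within the span of this gene. The complex I median includes all of them under the platform's name.

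Complex IV (cytochrome c oxidase) was read by the probe sets of 2 of its core subunits, and neither was called. cox1, which carries the site where oxygen is reduced, had signals of 384 and 290.1 in eif3h and of 424 and 256 in the wild type. The log2 ratios were -0.14 and 0.18 (log2 fold change 0.02 ± 0.18 SE, limma adjusted p = 0.950). cox2, the subunit that takes electrons from cytochrome c, had 92.6 and 126 in eif3h and 96.8 and 145 in the wild type. It was lower in eif3h in both repeats by little (log2 ratios -0.06 and -0.21), and the groups overlapped.

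matR, the maturase encoded within an intron of nad1, was near the bottom of the array, with signals of 6.2 and 17.2 in eif3h and of 6.9 and 5.6 in the wild type (log2 ratios -0.15 and 1.62). orfX (also named mttB) encodes a subunit of the twin-arginine protein translocase and was the brightest member below the tested range. Its signals were 219 and 258 in eif3h and 311 and 307 in the wild type. The genotypes did not overlap, and the log2 ratio was -0.50 in repeat 1 and -0.25 in repeat 2 (mean -0.38 ± 0.18 SD, n = 2). It was not tested, and 16.2% of all probe sets that were not tested had eif3h lower without overlap.

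**Figure D2:**
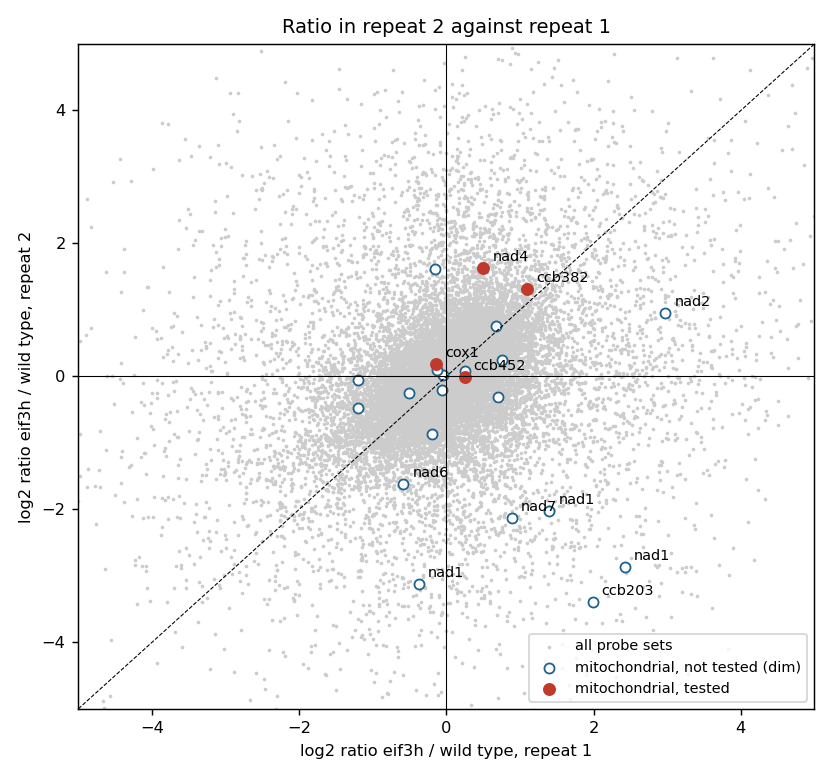
Log2 ratio of eif3h over wild type in repeat 1 (horizontal axis) and repeat 2 (vertical axis) for all probe sets (grey) and for the mitochondrial probe sets (red where tested, open blue where not). The dashed line marks equal ratios. ccb382 lies at 1.09 and 1.32 and nad4 at 0.50 and 1.63, while 10 of the 23 members lie in the quadrants where the repeats have opposite signs, and 139 probe sets lie outside the axes.

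Over the whole array, brighter probe sets differed less between the repeats. The absolute difference between the 2 log2 ratios of a probe set had a median of 1.56 over the 3775 probe sets with a mean signal under 30, of 0.998 at 30 to 100, of 0.43 at 100 to 300, of 0.30 at 300 to 1000 and of 0.22 above that. The 4 members under 30 (nad2, a nad1 probe set, ccb203 and matR) differed by 1.77 to 5.38, and 1 of them had the same direction in both repeats. The 8 members at 100 to 300 differed by 0.08 to 1.15, and 6 of them kept their direction. At 30 to 100, 4 of 7 members kept it, and at 300 to 1000, 1 of 3 did, with differences of 0.26 to 1.13. Of the 19 members that were not tested, 11 had the same direction in both repeats, where 57.6% of all untested probe sets had it, and 6 did not overlap between genotypes, where 34.3% did not. The directions of the dim members were thus shared between repeats about as often as those of other dim probe sets. nad4 differed by 1.13 between repeats at a mean signal of 733, where the median of that brightness was 0.30, and ccb382 differed by 0.23 at a mean signal of 1379.

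**Figure D3:**
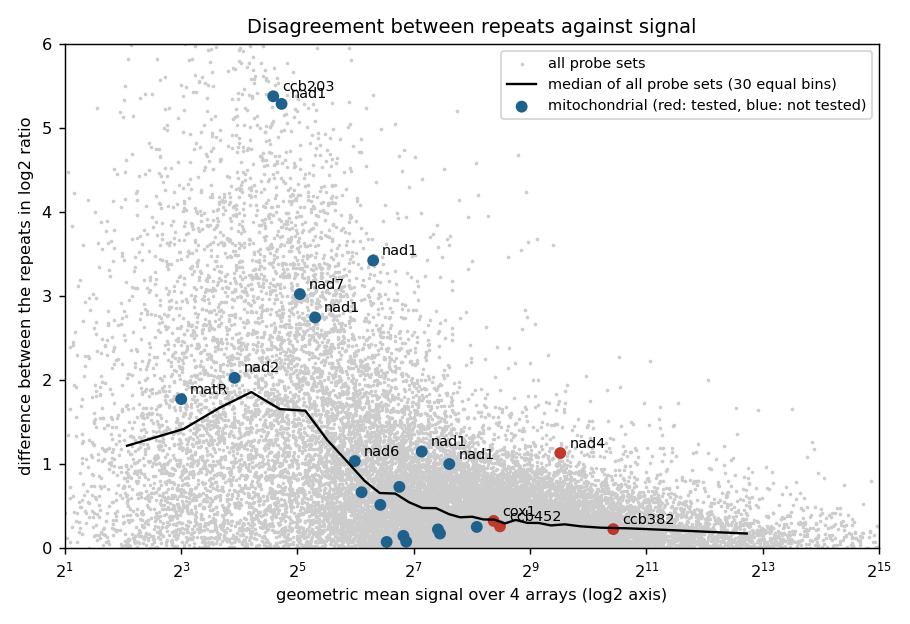
Absolute difference between the log2 ratios of repeat 1 and repeat 2 (vertical axis) against mean signal (horizontal axis, log2 scale) for all probe sets, with the mitochondrial probe sets marked (red where tested, blue where not) and the line giving the median of all probe sets in 30 brightness bins. The median is 1.56 below a signal of 30 and 0.22 from 1000 on, ccb382 lies near the line (0.23) and nad4 above it (1.13), and 198 probe sets lie outside the axes.

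A further 12 probe sets were paired by the platform with several genes, at least 1 of them mitochondrial, and so are not among the 23. For 11 of them the other gene is on chromosome 2, which carries a large insertion of mitochondrial DNA in the Columbia accession, and transcripts of either copy cannot be told apart. The remaining probe set reads rps3 and rpl16, which encode ribosomal proteins of the small and the large subunit and neighbour each other on the mitochondrial genome. Among probe sets named for mitochondrial genes, these supply the only values for complex III, complex V and the ribosomal proteins. Of the 12, 4 were higher in eif3h in both repeats (34.1% of all probe sets were) and 2 were lower in both (30.2% of all). The other 6 changed sign. The 3 of the 12 that were tested were not called at an adjusted limma p under 0.05.

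The probe set of cob, the cytochrome b subunit of complex III, had signals of 103 and 133 in eif3h and of 111 and 96.3 in the wild type. In complex V, that of atp1, the alpha subunit, had 309.9 and 353 in eif3h and 610.3 and 257 in the wild type (log2 ratios -0.98 and 0.46, limma adjusted p = 0.588). That of atp9, which forms the proton-conducting ring, had 807 and 664 in eif3h and 962 and 348 in the wild type (-0.25 and 0.93, adjusted p = 0.409). None of these 3 kept a direction in both repeats. The probe set of rps3 and rpl16 did, with signals of 1253 and 789.5 in eif3h and of 1000.5 and 338 in the wild type. Its log2 ratios were 0.33 and 1.23, and it missed the threshold (log2 fold change 0.78 ± 0.24 SE, limma adjusted p = 0.0596). Among the untested ribosomal protein probe sets, rps7 had 75.2 and 49.9 in eif3h against 11.8 and 6.5 in the wild type. That of rpl5 had 139.3 and 139.1 against 113 and 69.2. Both were without overlap, as were 34.3% of all untested probe sets. The mean signal of rps7 was 23.2, and below 30 the ratios of all probe sets differed between repeats by a median of 1.56 (0.27 for rps7). The only shared probe set that was lower without overlap was 266013_s_at, paired with nad1 and AT2G07702, with signals of 24.0 and 8.8 in eif3h and of 53.5 and 113 in the wild type (log2 ratios -1.16 and -3.68), the lowest mean ratio of the 12. rpl2 was higher in both repeats with overlap (log2 ratios 0.21 and 0.32), and rps4 was lower in both (-0.29 and -0.51).

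Several of the brighter mitochondrial probe sets had a lower level in repeat 2 than in repeat 1 in both genotypes, a pattern picked out after the values were seen. Of the 7 tested probe sets that read a mitochondrial gene (4 members and 3 shared), 5 did so (nad4, cox1, ccb452, atp9 and the probe set of rps3 and rpl16), where 34.1% of all tested probe sets did. In the wild type the log2 change from repeat 1 to repeat 2 was -1.99 for nad4, -1.57 for the probe set of rps3 and rpl16, -1.47 for atp9 and -1.25 for atp1. Only 2.62% of the tested probe sets were at least 2-fold lower in the wild type in repeat 2. In eif3h the same probe sets changed by -0.86, -0.67, -0.28 and 0.19. ccb382 did not take part, with changes of -0.01 in the wild type and 0.22 in eif3h. A fall was not particular to mitochondrial genes. Of 69 probe sets of the plastid genome, 34 were lower in repeat 2 in both genotypes. Their median log2 change was -0.39 in the wild type and -0.15 in eif3h, beside -0.01 and 0.01 for all tested probe sets. Both arrays of a repeat shared the day and the scanner, the repeats did not, and the ratio of 3' to 5' signal of the actin control was higher in repeat 1 (6.94 in eif3h, 3.55 in the wild type) than in repeat 2 (2.97 and 2.26). That of GAPDH was also higher in repeat 1 (1.92 and 1.98, against 1.33 and 1.25), and that of ubiquitin was higher in repeat 1 in eif3h (3.34 against 2.89) and lower in the wild type (2.74 against 3.13). Within each repeat the actin ratio was also higher in eif3h than in the wild type. For GAPDH and for ubiquitin the genotypes differed in opposite directions in the 2 repeats. The part of these values in the pattern, or in the genotype differences of other probe sets, was not tested.

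**Figure D4:**
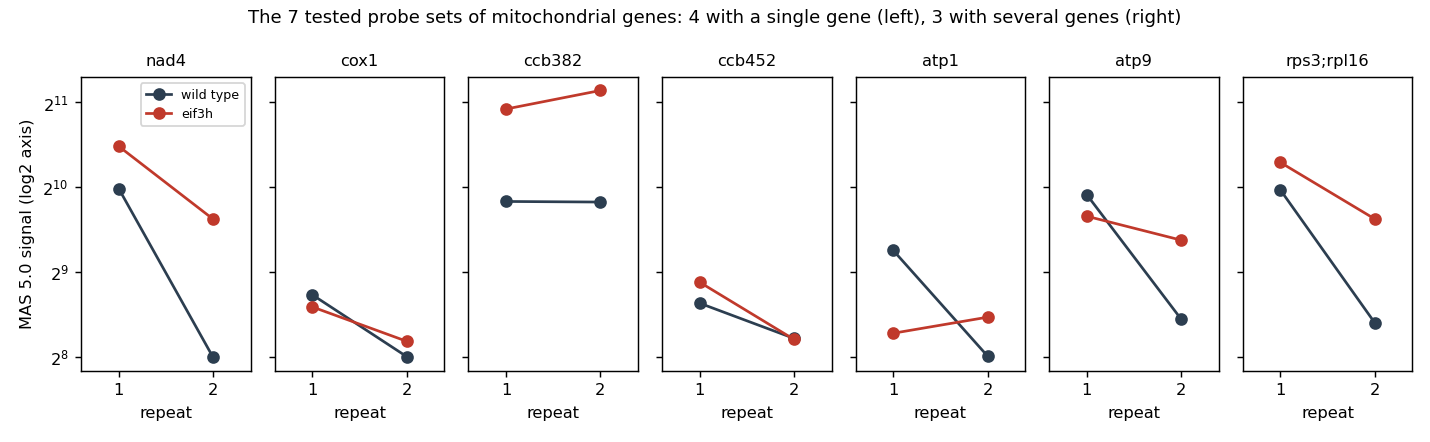
MAS 5.0 signal (log2 axis) of the 7 tested probe sets that read a mitochondrial gene, in repeat 1 and repeat 2, with lines joining the arrays of a genotype (eif3h red, wild type dark blue) and the 3 probe sets of several genes on the right. The wild-type signal of nad4 fell by 1.99 on the log2 scale, while both lines of ccb382 stay nearly level and apart.

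Neighbouring genes on the mitochondrial genome (order as in RefSeq) had unlike ratios around the brightest members. nad4 (0.50 and 1.63) lies between ccmFC and mttB. The ccb452 probe set, which reads ccmFC, had ratios of 0.25 and -0.01. The orfX probe set, which reads mttB, was lower in eif3h (-0.50 and -0.25). The probe set of rps3 and rpl16 (0.33 and 1.23) has nad9 on the side of rpl16 (-0.13 and 0.09) and ccmB on the side of rps3 (0.25 and 0.08). The neighbour of ccmFN1 with a probe set is cox3, a complex IV subunit whose shared probe set had log2 ratios of -0.02 and 0.68, followed by nad4L (-0.05 and 0.02).

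Nuclear genes of mitochondrial respiration and RNA metabolism were compared through a list of 52, of which 25 had a named probe set (26 probe sets, 19 tested). The limma test called 4 of the 19 higher (8.49% of all tested probe sets were) and 0 lower (9.68% of all), with an unadjusted p under 0.05 for 9 higher and 0 lower. Of the 26, 14 stand for cytochrome c or for subunits of complexes I, III, IV and V, which also have mitochondrial subunits, and all 14 were tested. In both repeats 13 of these 14 were higher in eif3h (40.0% of all tested probe sets were), 12 of them without overlap of the genotypes (28.4% of all), and the 4 called probe sets were among them. The rest of the list had 12 probe sets, of which 5 were tested and none was called. These stand for complex II, alternative NAD(P)H dehydrogenases and mitochondrial RNA polymerase, processing and decay. Higher in eif3h in both repeats were 3 of 4 for complex II and 2 of 3 for the dehydrogenases. So were 5 of 5 for the RNA genes, where 34.1% of all probe sets were. Over the whole list 23 of 26 probe sets were higher in both repeats, and 18 of the 19 tested. The called genes were AT3G15640, a complex IV subunit of the COX5B family (signals 2503 and 3258.5 in eif3h, 893 and 1611 in the wild type, adjusted p = 0.0073), and CYTC-1, cytochrome c itself (6495 and 8249.5 against 3575 and 4083, adjusted p = 0.0136). The others were AT4G32470, a small complex III subunit (5310.5 and 6210.1 against 2728 and 3692.5, adjusted p = 0.0186), and AT5G11770, the PSST subunit of complex I (5674 and 5293 against 3088 and 3830.3, adjusted p = 0.0458). In each of these 4 both eif3h arrays lay above both wild-type arrays. The mitochondrial subunits of complexes I and IV were read by 17 probe sets, of which 2 were tested and 1, that of nad4, was called. Without the block 0 of the nuclear genes were called (4 at an unadjusted limma p under 0.05), and with an array left out 0 to 1. The difference between the nuclear and the mitochondrial list was not tested. AOX1A, the alternative oxidase often used as a marker of mitochondrial stress, had no named probe set.

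The plastid genome, the other organellar genome, was read by 69 probe sets, 64 of them tested. Their median log2 ratio was -0.38 in repeat 1 and 0.06 in repeat 2, with 2 called higher (8.49% of all tested probe sets were) and 4 lower (9.68% of all). Like the mitochondrial medians (0.25 and -0.05), the plastid medians had opposite signs in the 2 repeats, beside 0.05 and 0.01 for all probe sets. In repeat 2 both lay near 0, so their signs there set no direction for either genome.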

How the data were processed

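Total RNA was measured on 4 Affymetrix ATH1 arrays. The deposited values are intensities on a linear scale, the MAS 5.0 signals that the authors computed with the Affymetrix software and scaled to an equal trimmed mean per array (500.0), without further normalization. Scaling is to the whole array, so a ratio is relative to total labelled RNA. First-strand cDNA was made from total RNA, and the primer is not given in the sources used here. Whether mitochondrial transcripts were primed like others is therefore unknown, and their signals may differ from transcript abundance. Detection calls were not used here. From the scan settings, only whether arrays shared a day and a scanner was taken. The number of arrays limits the precision.

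Of 22810 probe sets, 64 controls were left out. The platform annotation gives 13513 probe sets 1 gene, 503 several and 8730 none. Its identifiers of mitochondrial genes are older than those in RefSeq (TAIR10.1), so members were matched by symbol or synonym. TIF3H1 was named through the study's gene list. Names ending in _s_at mark probe sets that may read several transcripts, as do 5 of the 23 members. Probe sets with no gene name could include further mitochondrial reading frames and were not analysed here.

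A linear model of genotype and repeat was fitted to log2 signals (limma 3.58.1, R 4.3.3, lmFit and eBayes) over the 8831 probe sets with the highest mean log2 signal, the number that the study kept after detection calls. The fit has 1 residual and 6.58 prior degrees of freedom. It was tested on simulated data with 200 changed probe sets. The repeat is a block because the methods form ratios within a repeat, each from a separate RNA preparation. Changes from repeat 1 to repeat 2 in the 2 genotypes correlated with r = 0.530 across tested probe sets and with r = -0.153 across the 23 members. No date or scanner was shared between repeats. Alternatives were no replicate block, quantile normalization, median centring, an offset of 50, an intensity trend, a fit to all probe sets or to the 5000 brightest, the study's fold rule (both ratios beyond 2-fold in 1 direction, or an average beyond 2-fold whose SD is smaller than 50% of that average), members without _s_at probe sets or with those of several genes, and leaving out each array. Python 3.11.15 with pandas 2.3.3 made the summaries.

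Named were, in each group, called probe sets and then those with the largest mean ratio until 4 were named, the first and last member by mean ratio, called nuclear partners, AOX1A and TIF3H1. Other members and shared probe sets are described as well, chosen after their values were seen. Members and lists were chosen with earlier results of these data known.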

Additional observations from a re-analysis of the deposited data

How the results depend on the processing

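Of the 23 members, 2 were called higher. Without the replicate block 0 were (limma, 1 at an unadjusted p under 0.05), with all probe sets tested 0 (1 unadjusted), with quantile normalization 1, by the fold rule 1, and with an array left out 0 to 1. In each of these settings 0 were called lower. With all probe sets tested, 0 of the 22746 were called in either direction. A count of 0 in that setting is thus not particular to the members or the nuclear partners. Shares over the whole array in the other alternatives are not given here. ccb382 kept its direction in all settings, with an adjusted p of 0.067 without the block, 0.414 with all probe sets and 0.0911 to 0.177 with an array left out (log2 fold change 1.09 to 1.31), and of 0.00125 to 0.0126 in the other limma settings. nad4 had an adjusted p of 0.0534 after quantile normalization and 0.447 with all probe sets, and its log2 fold change ran from 0.07 (without WT replicate 2) to 2.06 (without WT replicate 1) in fits that drop the block with the array. Of the nuclear partners, 4 were called higher, 0 without the block or with all probe sets (4 unadjusted in each), and 0 to 1 with an array left out. With an array left out the median ratio of the 23 members ran from -0.37 to 0.22, that of complex I from -0.62 to 0.27 and that of cytochrome c maturation from 0.0842 to 0.678. The complex IV median was -0.06, and 0.0192 with the probe set of several genes. Leaving out an array leaves 3, fitted on genotype alone, and assumes that the lone array varies like the other group. The maturase and translocase group has no value without _s_at probe sets. Below a signal of about 100 the repeats differed by a median of 0.998 or more on the log2 scale, which limits what the 11 dimmest members can show.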

Other observations

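On chromosome 2, which carries a large insertion of mitochondrial DNA in the Columbia accession, 20 probe sets are each named for a single gene of a stretch. It lies between the outermost chromosome 2 genes that share a probe set with a mitochondrial gene. Many of the 20 are _s_at probe sets, and some may read mitochondrial transcripts, which the annotation does not say. The only one of the 20 that was tested was that of AT2G07707. It had signals of 518 and 343 in eif3h and of 492 and 201 in the wild type (log2 ratios 0.07 and 0.77, limma adjusted p = 0.198). AT2G07751 had signals of 373.5 and 146 in eif3h and of 598 and 163 in the wild type, lower in repeat 2 in both genotypes, as for nad4, cox1, ccb452, atp9 and the probe set of rps3 and rpl16. AT2G07692 was higher in eif3h without overlap at low signals, 33.3 and 25.6 against 12.2 and 11.6. AT2G07693 was lower without overlap, also at low signals, 27.5 and 3.0 against 32.0 and 32.8. The other 18 overlapped, while 34.3% of all untested probe sets did not overlap. These genes were named after their values were seen.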
